A study of Mus musculus with 4 samples.

Results

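Small leucine-rich proteoglycans are short secreted core proteins built mainly of leucine-rich repeats, and most of them carry glycosaminoglycan chains. They sit on collagen fibrils, where they set fibril width and spacing, and several of them bind growth factors of the TGFβ family. In adipose tissue they are made largely by fibroblasts and adipocyte progenitors and belong to the interstitial matrix that builds up in obesity. Expression of 8 genes of this family, Dcn, Lum, Bgn, Fmod, Ogn, Prelp, Aspn and Omd, was examined here by gene symbol among the 24421 genes of the deposited matrices. All 8 were present, and all 8 passed a filter of at least 0.5 CPM, reads of a gene scaled to the size of the library, in at least 2 libraries, which 14106 genes passed. The members had not been selected for their values in these libraries, but earlier results of these data were known when they were chosen.

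The libraries came from epididymal adipose tissue, a visceral fat depot, of wild-type male C57BL/6J mice with obesity induced by high-fat diet (HFD). Weight-cycled mice (WC1) began HFD at 8 weeks of age and received it for 8 weeks, then standard diet for 2 weeks and HFD for a last 6 weeks. Control mice (Ctrl) began HFD at 10 weeks of age and received it without a break for 14 weeks. Both groups had therefore spent 14 weeks on HFD and were 24 weeks old at the end, with 2 libraries in each. Whether each library held 1 mouse or a pool is not given in the labels, and p-values measure only the spread between these libraries.

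The libraries held between 61465029 and 90965297 reads, recovered from the CPM matrix. Of the 14106 genes, 17.9% were called different between groups by limma at an adjusted p under 0.05 (10.2% higher and 7.71% lower in WC1). A gene's libraries did not overlap between groups in 69.3% of genes. All 6 adipocyte markers were detected, and their summed level was 9564 to 10686 CPM in Ctrl and 17205 to 22098 CPM in WC1, while 3 of 5 epididymis markers (Crisp1, Lcn5 and Lcn8) were at 0 in every library and Spint3 had at most 2 reads. Adam7, also an epididymis marker, stood at 3.02 CPM (184 reads) in WC1 1, against 0 reads in both Ctrl libraries and 2 reads in WC1 2. Its part in the results was not tested, and the members that were called are also given without WC1 1. The 9 fibroblast and progenitor markers summed to 974 CPM in both Ctrl libraries and to 745 to 816 CPM in WC1. In whole tissue, fewer cells of a type and less RNA per cell cannot be told apart.

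Prelp, which encodes an arginine- and proline-rich member that binds heparan sulfate and collagen, rose in WC1, whereas Dcn and Lum, which encode the fibril-binding proteins decorin and lumican, fell. Bgn, which encodes biglycan, was below Ctrl in both WC1 libraries without passing the threshold. The other 4 genes did not pass it either. Thus 1 of 8 members was called higher and 2 were called lower, beside 10.2% and 7.71% of all tested genes. Libraries did not overlap between groups for 5 members, with 1 above Ctrl in WC1 (32.7% of all genes) and 4 below (36.6%). A count of this size says little about the family as a whole. The median log2 fold change was -0.12 over the 8 members and -0.02 over all tested genes.

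The genes lie in 3 clusters of the mouse genome and at one separate locus (build mm10, GENCODE M21). On chromosome 10, Dcn (97479609 to 97518143) and Lum (97565128 to 97572703) are followed by Kera and Epyc. On chromosome 1, Prelp (133910304 to 133921414, minus strand) lies between Optc and Fmod (134037254 to 134048277, plus strand), with no protein-coding gene in the 115839 bases between Prelp and Fmod. On chromosome 13, Ecm2, Aspn (49544443 to 49567565), Omd (49582462 to 49592822) and Ogn (49608046 to 49624501) follow each other on the plus strand. Bgn is on chromosome X (73483602 to 73495933, plus strand).

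Promoter sequences are shown for Prelp, the member that rose, for Fmod, its neighbour, which was not called, and for Bgn, which was lower in both WC1 libraries. Each is the 250 bases before the RefSeq start (build GRCm38.p6), written 5′ to 3′ on the strand of the gene, and 6 of the 8 members had an entry. Capitals mark matches, on either strand, to the TATA box (TATAAA), the CCAAT box (CCAAT), the GC box (GGGCGG) or the SMAD box (CAGAC), a short sequence that SMAD proteins of TGFβ signalling bind.
Prelp, chr1:133921402-133921651, minus strand: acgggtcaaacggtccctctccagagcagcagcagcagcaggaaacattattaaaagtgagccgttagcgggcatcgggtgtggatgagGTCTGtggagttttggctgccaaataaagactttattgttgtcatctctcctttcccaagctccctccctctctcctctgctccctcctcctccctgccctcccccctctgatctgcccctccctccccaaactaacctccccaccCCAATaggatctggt
Fmod, chr1:134037004-134037253, plus strand: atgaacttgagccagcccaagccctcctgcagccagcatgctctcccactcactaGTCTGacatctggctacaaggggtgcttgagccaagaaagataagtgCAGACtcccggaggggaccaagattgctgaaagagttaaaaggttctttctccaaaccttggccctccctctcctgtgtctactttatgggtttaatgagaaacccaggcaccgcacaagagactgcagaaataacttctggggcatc
Bgn, chrX:73483351-73483600, plus strand: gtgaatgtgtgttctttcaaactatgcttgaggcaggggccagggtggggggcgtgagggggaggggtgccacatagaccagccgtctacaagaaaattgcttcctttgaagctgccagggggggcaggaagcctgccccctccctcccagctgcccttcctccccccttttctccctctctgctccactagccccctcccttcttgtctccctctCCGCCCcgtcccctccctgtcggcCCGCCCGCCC
The Prelp window held a CCAAT box 15 bases before the start and a SMAD box on the opposite strand 161 bases before it. The GENCODE start of Prelp lies upstream of the RefSeq start, so that the last 13 bases of the window fall inside the GENCODE gene and the CCAAT box lies across its start. The Fmod and Bgn windows end before the GENCODE genes. The Fmod window held 2 SMAD boxes, 148 and 195 bases before the start. The Bgn window held 3 GC boxes, all on the opposite strand, 34, 10 and 6 bases before the start, of which the last 2 overlap. Of 32851 promoter windows of the same length, 42.2% held a SMAD box, 33.9% a CCAAT box, 32.7% a GC box and 12.4% a TATA box, so these matches are common. C and T made up 61.2% of the Prelp window and 61.2% of the Bgn window, beside a median of 50% and a 95th percentile of 60.4% over all windows. Prelp and Bgn, whose windows share this content, lay on opposite sides of Ctrl in WC1.

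The class I members are decorin, biglycan and asporin. Decorin, which carries a chondroitin or dermatan sulfate chain and limits the lateral growth of collagen fibrils, was the most abundant member. Dcn stood at 1646 and 1676 CPM in the Ctrl libraries and at 1147 and 1046 CPM in the WC1 libraries. The Ctrl libraries lay close together and both WC1 libraries lay well below them. The group means were 1661 ± 21.3 and 1096 ± 71.7 CPM (SD, n = 2 per group), a level 1.52-fold higher in Ctrl. On the log2(CPM + 1) scale Dcn decreased by 0.60 ± 0.13 (SE, 95% interval -0.93 to -0.28, limma adjusted p = 0.038). Its log2 fold change was -0.67 without WC1 1 and -0.53 without WC1 2.

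Biglycan is the closest relative of decorin, and as a free protein it is known to signal through Toll-like receptors. Bgn stood at 1384 and 1451 CPM in Ctrl, against 1104 and 871 CPM in WC1. Both WC1 libraries were below both Ctrl libraries, but WC1 1 and WC1 2 lay further apart from each other than the Ctrl libraries did. The log2 fold change was -0.53 ± 0.16 (95% interval -0.94 to -0.13), which missed the threshold in limma (adjusted p = 0.077). It was -0.70 without WC1 1 and -0.36 without WC1 2.

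Asporin has an aspartate-rich stretch in place of a chain attachment site and is known to bind TGFβ and collagen. Aspn stood at 69.1 and 78.7 CPM in Ctrl, against 68.1 and 67.5 CPM in WC1. The WC1 libraries lay just below the lower Ctrl library, by less than the distance between the Ctrl libraries. Its log2 fold change was -0.12 ± 0.09 (95% interval -0.34 to 0.10, limma adjusted p = 0.36), and it was 0.02 in the transcript-length-corrected TPM matrix.

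**Figure D1:**
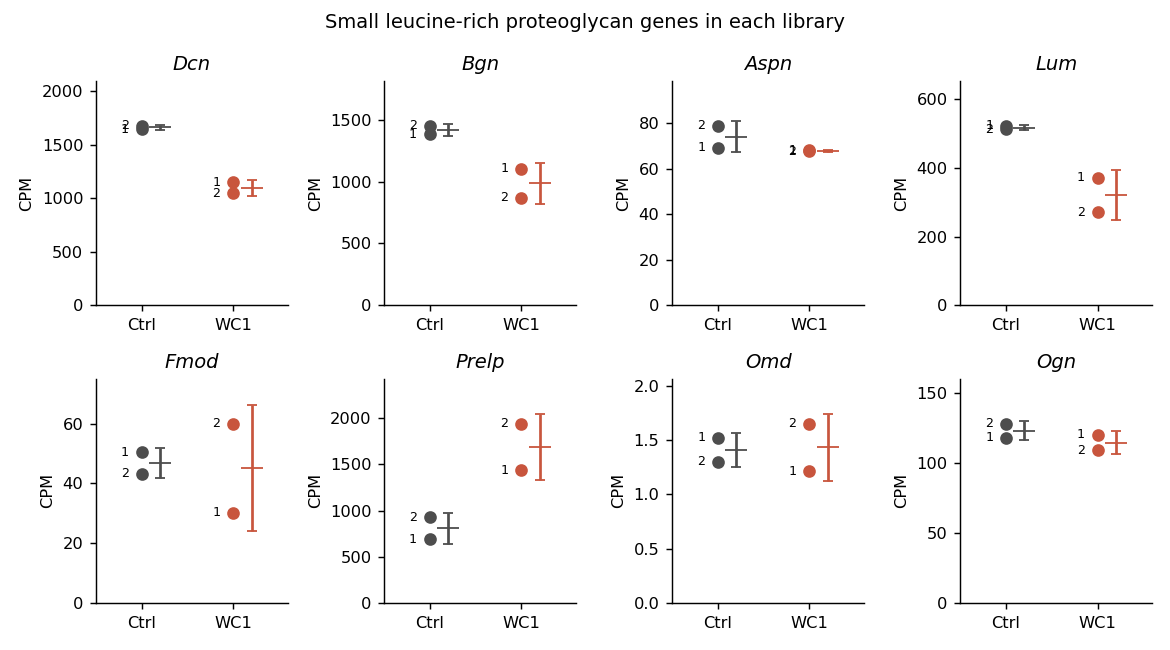
Level of each of the 8 genes in CPM (linear axis from 0) in the Ctrl (grey) and WC1 (red) libraries, numbered 1 and 2, with the group mean ± SD (n = 2) beside the points. Dcn, Bgn and Lum are lower in both WC1 libraries, Prelp is higher in both, and the Fmod libraries of WC1 lie on either side of Ctrl.

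The class II members are lumican, fibromodulin, PRELP and osteomodulin. Lumican carries keratan sulfate and takes part in the assembly of collagen fibrils. Lum stood at 523 and 513 CPM in Ctrl, against 372 and 270 CPM in WC1. The Ctrl libraries were nearly equal, and the WC1 libraries were lower and stood apart from each other. Lum fell by 0.71 ± 0.17 on the log2 scale (95% interval -1.13 to -0.28, limma adjusted p = 0.047). Its log2 fold change was -0.94 without WC1 1 and -0.48 without WC1 2. In the TPM matrix it was -0.57 and was not called (limma adjusted p = 0.065).

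PRELP is known as an anchor between the collagen matrix and the heparan sulfate proteoglycans of basement membranes, and it usually carries no chain itself. Prelp stood at 689 and 929 CPM in Ctrl, against 1434 and 1941 CPM in WC1. The groups did not overlap, although the libraries of each group differed from one another more than those of Dcn did. The group means were 809 ± 169 and 1688 ± 358 CPM (SD, n = 2 per group), a 2.09-fold higher level in WC1. The log2 fold change was 1.06 ± 0.22 (SE, 95% interval 0.48 to 1.63, limma adjusted p = 0.038), and it was 1.28 without WC1 1 and 0.84 without WC1 2. GENCODE lists an antisense gene, Gm15851, across Prelp, which was not analysed here.

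Fibromodulin also carries keratan sulfate, binds collagen and guides its cross-linking by lysyl oxidase. Fmod stood at 50.4 and 43.2 CPM in Ctrl, against 30.2 and 60.0 CPM in WC1. One WC1 library was below both Ctrl libraries and the other above both, while the group means were close, at 46.8 ± 5.14 and 45.1 ± 21.1 CPM (SD, n = 2 per group). The log2 fold change was -0.13 ± 0.32 (95% interval -0.95 to 0.70, limma adjusted p = 0.80). For Fmod it was -0.61 without WC1 2 and 0.36 without WC1 1, so its direction was set by which WC1 library was kept.

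Osteomodulin, best known from bone, was close to the lower limit of the filter. Omd stood at 1.52 and 1.30 CPM in Ctrl, against 1.21 and 1.65 CPM in WC1, with 74 to 113 reads in a library. The groups overlapped and the log2 fold change was 0.01 ± 0.15 (95% interval -0.38 to 0.40, limma adjusted p = 0.97). The gene Cenpp overlaps Aspn, Omd and Ogn on the opposite strand and stood at 1.33 to 1.84 CPM. The libraries were directional, but no source used here states whether counting used strand. At this level reads of Omd and Cenpp cannot be told apart. Aspn and Ogn stood far above Cenpp.

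The class III member Ogn encodes osteoglycin, also called mimecan, which takes part in collagen fibril assembly. Ogn stood at 118 and 128 CPM in Ctrl, against 120 and 109 CPM in WC1, and the groups overlapped. The log2 fold change was -0.10 ± 0.09 (95% interval -0.32 to 0.12, limma adjusted p = 0.42).

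The calls of Dcn, Lum and Prelp were lost when either Ctrl library was left out, while their directions stayed. A fit without a Ctrl library takes its spread from the WC1 libraries alone. These lay further apart than the Ctrl libraries (chi-square over its degrees of freedom 93.4 against 37.0). A fit without a WC1 library takes its spread from the Ctrl libraries alone. Without Ctrl 1 the log2 fold changes were -0.61 for Dcn, -0.69 for Lum and 0.84 for Prelp, and without Ctrl 2 they were -0.59, -0.72 and 1.27, but none of them was called (limma adjusted p between 0.15 and 0.32), where limma called 2 genes higher and 4 lower without Ctrl 1 and 6 and 6 without Ctrl 2, none of them in the gene or marker lists described below. Each of the 3 genes kept its direction in all 14 alternatives and its call in 11 (Dcn), 10 (Lum) and 11 (Prelp) of them. For a single gene, an exact permutation test of 2 against 2 libraries cannot give a p below 0.333.

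**Figure D2:**
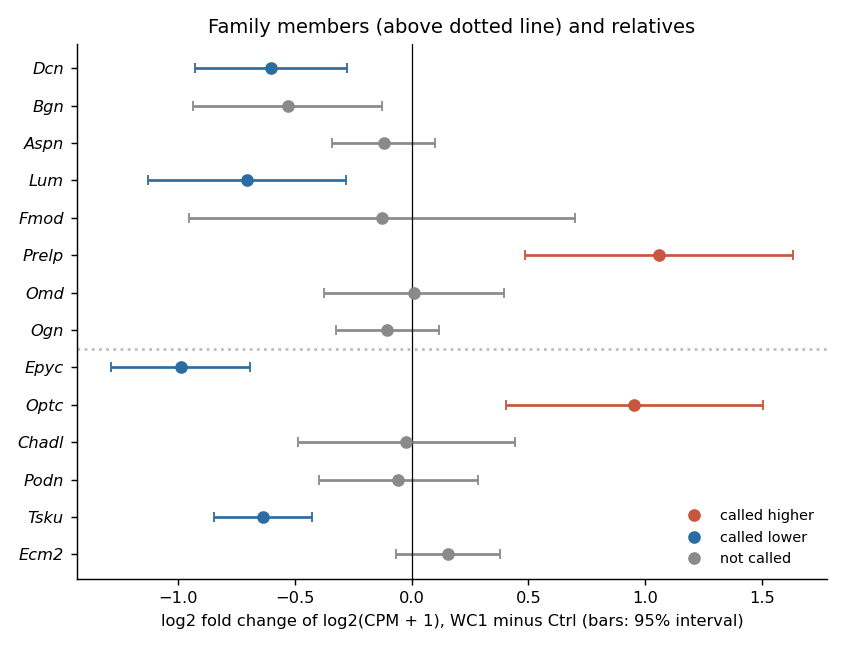
Log2 fold change (WC1 minus Ctrl, log2(CPM + 1) scale) with its 95% interval from limma for the 8 genes, above the dotted line, and for 6 further tested genes of the family, below it. Red marks genes called higher, blue genes called lower and grey genes not called; Prelp at 1.06 and Optc at 0.95 stand to the right, Dcn at -0.60, Lum at -0.71, Tsku at -0.64 and Epyc at -0.99 to the left.

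Levels of different genes were compared in TPM, which is corrected for length. In Ctrl the order of mean levels was Dcn (1751 ± 38.0 TPM), Bgn (1140 ± 46.3), Lum (479 ± 2.94), Prelp (432 ± 93.2), Ogn (93.2 ± 5.98), Aspn (60.4 ± 6.01), Fmod (31.4 ± 3.23) and Omd (1.54 ± 0.16) (SD, n = 2). Lum and Prelp overlapped in this order, and the other neighbours did not. In WC1 Prelp moved to the second place, with Dcn at 1265 ± 59.6, Prelp at 995 ± 233, Bgn at 874 ± 126 and Lum at 327 ± 66.1 TPM. There Prelp and Bgn overlapped, while both Dcn values were above both Prelp values. The lower 4 places in WC1 were held by Ogn (95.5 ± 4.53), Aspn (61.1 ± 1.03), Fmod (33.6 ± 16.4) and Omd (1.73 ± 0.41), in the same order as in Ctrl and without overlap between neighbours. By mean TPM over the 4 libraries, Dcn ranked 75, Bgn 141, Prelp 208 and Lum 380 among the 24421 genes of the matrix.

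The summed level of the 8 genes was 3858 and 4117 TPM in Ctrl and 3656 and 3648 TPM in WC1, somewhat lower in both WC1 libraries, or 0.365% to 0.412% of all TPM in a library. Prelp took 9.48% and 12.1% of this sum in Ctrl and 22.7% and 31.8% in WC1. Dcn took 44.7% and 43.2% in Ctrl and 35.7% and 33.5% in WC1. Together, Dcn, Lum and Bgn made up 85.8% and 83.2% in Ctrl, compared to 72.3% and 62.7% in WC1. The groups did not overlap in any of these shares.

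**Figure D3:**
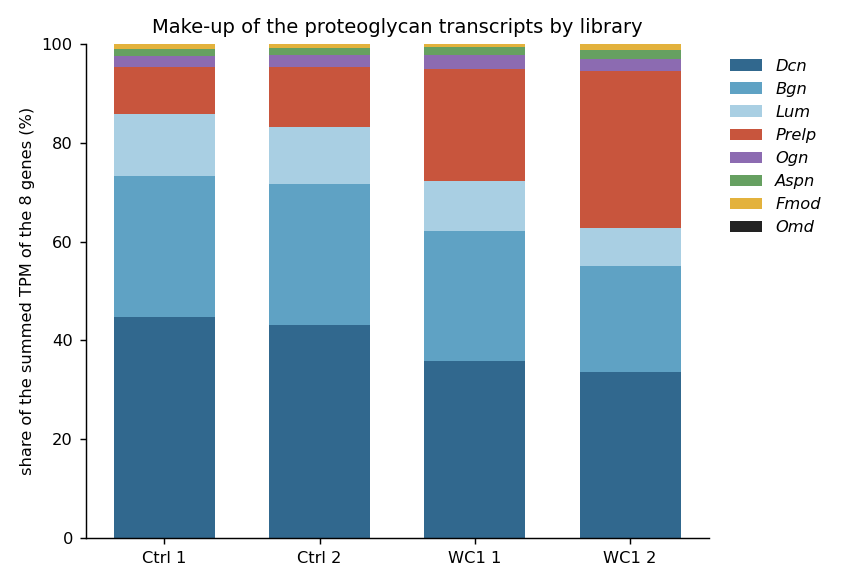
Share of each gene in the summed TPM of the 8 genes (%, stacked to 100) in each library. The Prelp share is 9.48% and 12.1% in Ctrl and 22.7% and 31.8% in WC1, and the shares of Dcn, Bgn and Lum are smaller in both WC1 libraries.

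Ratios within a library do not depend on how the libraries were scaled. The TPM ratio of Prelp to Dcn was 0.21 and 0.28 in Ctrl, compared to 0.64 and 0.95 in WC1. The ratio of Prelp to Lum was 0.76 and 1.04 in Ctrl, compared to 2.22 and 4.14 in WC1. The ratio of Dcn to Bgn, in contrast, was 1.56 and 1.52 in Ctrl and 1.36 and 1.56 in WC1 and overlapped between groups, and that of Dcn to Lum (3.58 and 3.73, then 3.50 and 4.36) overlapped as well. The ratio of Lum to Bgn was 0.43 and 0.41 in Ctrl, compared to 0.39 and 0.36 in WC1, and did not overlap. The ratios of Prelp to Dcn, Lum and Bgn did not overlap between groups either.

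In the TPM matrix the all-gene median of the log2 fold changes lay 0.12 above that in CPM, and limma called 2054 genes higher and 583 lower there, beside 1443 and 1088 in CPM. Relative to this median, log2 fold changes in TPM were -0.57 for Dcn, -0.67 for Lum, -0.49 for Bgn and 1.10 for Prelp. Those of Fmod, Ogn and Aspn changed sign between the matrices as fitted, at 0.01, 0.04 and 0.02 in TPM, and none of the 3 was called in either.

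Cell type markers moved with some members. The adipocyte markers summed to 17205 to 22098 CPM in WC1 and 9564 to 10686 CPM in Ctrl, 4 of 6 were called higher and none lower, and like Prelp they were lowest in Ctrl 1 and highest in WC1 2. The 4 endothelial markers, all called higher, summed to 298 to 338 CPM in Ctrl and 648 to 833 CPM in WC1, and the 5 pericyte and smooth muscle markers, 4 of them called higher, to 204 to 210 CPM and 376 to 436 CPM. Like Dcn, Lum and Bgn, 7 of 9 fibroblast and progenitor markers were lower in both WC1 libraries, with 5 called lower, while Dpp4 was above Ctrl in both and Pdgfrb overlapped. The 7 macrophage markers summed to 9349 to 10344 CPM in Ctrl and 4168 to 5972 CPM in WC1. Most of this sum in Ctrl was Lyz2, which had a mean of 5771 CPM there and 2461 CPM in WC1. Lyz2 and Mrc1 were called lower, 4 others were below Ctrl in both WC1 libraries without a call, and Cd163 was above Ctrl in both, at 29.5 and 35.4 CPM against 23.6 and 26.3 CPM. Centred over the 4 libraries on the log2(CPM + 1) scale, the macrophage mean was 0.34, 0.29, -0.10 and -0.53 (Ctrl 1, Ctrl 2, WC1 1, WC1 2). Lum (0.37, 0.34, -0.12 and -0.58) and Bgn (0.23, 0.30, -0.09 and -0.44) lay closer to it than to the fibroblast and progenitor mean (0.18, 0.17, -0.12 and -0.23). Dcn stood at 0.29, 0.31, -0.23 and -0.37. The part of these cell types in the levels of the proteoglycans was not tested.

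Fmod moved with the sum of the mesothelial markers. The 8 markers, which mark the cell layer on the surface of the fat pad, summed to 128 and 95.8 CPM in Ctrl and to 65.6 and 175 CPM in WC1, lowest in WC1 1 and highest in WC1 2 like Fmod, and none of them was called. Not every marker followed this order. Krt19 was lowest in Ctrl 2 (6.38 CPM, against 6.92 CPM in WC1 1), and Wt1 was highest in Ctrl 1 (15.0 CPM, against 14.3 CPM in WC1 2). Their part in the level of Fmod was not tested. Markers of tendon and cartilage, tissues rich in these proteoglycans, summed to 6.93 to 10.2 CPM, with Acan at 0 in every library.

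**Figure D4:**
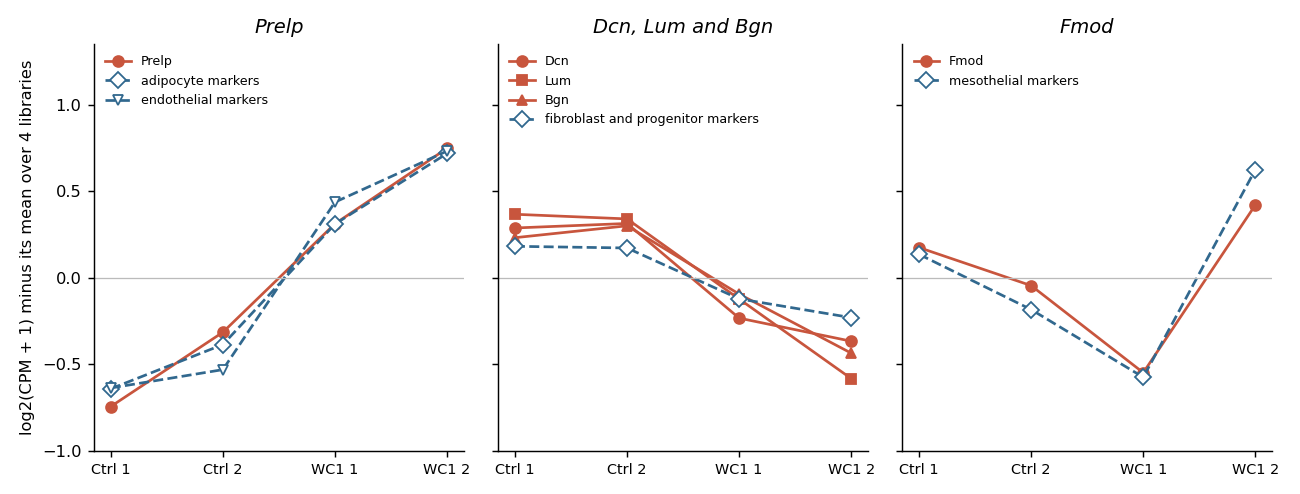
Level of members (red) and mean level of marker lists (blue) in each library as log2(CPM + 1) minus the mean over the 4 libraries; lines only join the points of 1 gene or list. Prelp follows the adipocyte and endothelial markers, Dcn, Lum and Bgn are below 0 in WC1 like the fibroblast and progenitor markers, and Fmod is lowest in WC1 1 and highest in WC1 2 like the mesothelial markers. The mean of the macrophage markers, also below 0 in both WC1 libraries, is not drawn.

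Next, the remaining genes of the family were examined. Of 10 genes, 6 passed the filter, with 1 called higher and 2 called lower. Optc, the neighbour of Prelp on the same strand, which encodes opticin, stood at 1.30 and 1.40 CPM in Ctrl, against 2.74 and 4.54 CPM in WC1 (log2 fold change 0.95 ± 0.21, limma adjusted p = 0.043). Its start lies 2304 bases beyond the end of Prelp, and its level was 0.151% to 0.234% of that of Prelp in CPM. Epyc, the epiphycan gene in the cluster of Dcn and Lum, stood at 5.42 and 5.01 CPM in Ctrl, against 2.23 and 2.03 CPM in WC1 (-0.99 ± 0.12, limma adjusted p = 0.016). Tsku, whose product tsukushi binds several secreted growth factors, stood at 22.3 and 23.1 CPM in Ctrl, against 14.4 and 14.1 CPM in WC1 (-0.64 ± 0.08, limma adjusted p = 0.018).

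The log2 fold changes of Ecm2 (0.16), Podn (-0.06) and Chadl (-0.02) did not pass the threshold. Ecm2, the first gene of the chromosome 13 cluster, stood at 26.0 and 26.6 CPM in Ctrl, against 31.0 and 27.9 CPM in WC1. Kera, Nyx and Podnl1 were below the filter, at 0.07 to 0.56 CPM, and Chad was at 0 in every library, where 3 reads, between 0.0345 and 0.0492 CPM, are the limit that a count of 0 allows. This limit covers counting error only. By position, a grouping made with the calls known, all 3 tested genes of the chromosome 10 cluster (Dcn, Lum and Epyc) were called lower, with Kera not tested. Prelp and Optc on chromosome 1 were called higher while Fmod beyond them was not called, and none of the 4 genes of the chromosome 13 cluster was called. Of all tested genes, 7.71% were called lower and 10.2% higher. Counts this small say little about the clusters, and a part of position was not tested.

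Enzymes that build the chains were then counted. The chondroitin or dermatan sulfate of decorin and biglycan is extended from a linkage region that starts with xylose on a serine. The keratan sulfate of lumican and fibromodulin is instead built on sugars bound to asparagine and does not use these linkage enzymes. Of 6 linkage enzymes, 1 was called lower and none higher (median log2 fold change -0.25). B3gat3, which adds the last sugar of the linkage, fell by 0.37 ± 0.07 (log2; limma adjusted p = 0.028), while Xylt2 (-0.33), Fam20b (0.22) and B4galt7 (-0.21) were not called. Of 15 tested genes for chondroitin and dermatan sulfate, 2 were called higher and 3 lower (median -0.20). Dsel, an epimerase that turns chondroitin into dermatan sulfate, fell by 0.48 ± 0.08 and Chpf2, a polymerizing factor, by 0.71 ± 0.09, whereas the sulfotransferases Chst7 (0.83 ± 0.15) and Chst15 (0.43 ± 0.09) rose (limma adjusted p between 0.019 and 0.039).

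Of 7 tested genes for keratan sulfate, 1 was called higher and 2 lower (median -0.05). Chst1, the sulfotransferase that sulfates galactose in keratan sulfate, rose from 31.0 and 34.6 CPM in Ctrl to 65.5 and 73.9 CPM in WC1 (log2 fold change 1.06 ± 0.10, limma adjusted p = 0.012). The chain-extending transferases B4galt1 and B3gnt2, which also act on other glycans, fell by 0.59 ± 0.08 and 0.78 ± 0.13, and B3gnt7 (0.37) was not called. Thus enzymes of the same chain moved in both directions.

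Proteins that process the matrix around the core proteins were counted next. Of 13 genes for proteases known to cut matrix proteins and their helpers, 4 were called higher and 7 lower (median -0.64). Mmp3, stromelysin, which cuts decorin, fell from 100 and 82.0 CPM in Ctrl to 18.9 and 15.6 CPM in WC1 (log2 fold change -2.33 ± 0.14, limma adjusted p = 0.0062). Mmp13, a collagenase, fell by 2.05 ± 0.29 and Gzmb, the granzyme B gene, by 1.21 ± 0.18. Gzmb stood at 1.89 and 2.63 CPM in Ctrl, against 0.28 and 0.52 CPM in WC1, so the added 1 shrinks its change, which was -2.26 with a pseudocount of 0.1 and -2.47 in edgeR. In CPM it was 5.63-fold higher in Ctrl, beside 5.27-fold for Mmp3 and 4.75-fold for Mmp13. Pcolce, no protease itself but an enhancer of procollagen processing, fell by 0.75 ± 0.10. Mmp12, the gene with the highest level in the list, stood at 6223 and 5523 CPM in Ctrl, against 1969 and 864 CPM in WC1. Its log2 fold change was -2.17 ± 0.41 (limma adjusted p = 0.032). Mmp2 (-0.98) and Mmp14 (-0.64) were also called lower, and these genes too were named after their values had been seen. The 4 higher genes, named after their values had been seen, were Htra1 (0.75), Tll1 (0.75), Adamts5 (0.62) and Adamts1 (0.36). Of these, Adamts5 kept its call in 6 of 14 alternatives and Tll1 in 8 of 13. Of the macrophage markers, 6 of 7 were lower in both WC1 libraries beside these falls, and their part was not tested.

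Of 9 cross-linking genes, 2 were called higher and 1 lower (median -0.12). Lox, which encodes lysyl oxidase, rose by 0.51 ± 0.10 and Tgm2 by 0.40 ± 0.08, while Plod2, a lysyl hydroxylase, fell by 0.62 ± 0.14 (limma adjusted p between 0.031 and 0.043), and Loxl4 (0.49) was not called. Of 11 tested collagen genes, 2 were called higher and none lower (median 0.35). These were Col12a1 (0.72 ± 0.07) and Col5a3 (0.56 ± 0.13), while Col5a1 (0.35), Col6a1 (0.53), Col1a1 (0.09) and Col3a1 (-0.36) were not called. The log2 fold change of Col3a1 was -0.57 without WC1 1 and -0.16 without WC1 2.

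The levels of decorin and lumican were also set against type I collagen, whose fibrils they coat. The CPM ratio of Lum to Col1a1, in which gene length cancels between libraries, was 0.46 and 0.47 in Ctrl, compared to 0.27 and 0.26 in WC1. The ratio of Dcn to Col1a1 was 1.44 and 1.54 in Ctrl and 0.83 and 1.02 in WC1. Against Col3a1 the ratio of Dcn was 0.30 and 0.33 in Ctrl and 0.24 and 0.29 in WC1, with the higher WC1 library close to Ctrl. These ratios were chosen after the levels had been seen.

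Growth factors and receptors that bind the core proteins showed no common direction. Of 19 tested genes, 3 were called higher and 3 lower (median -0.10). Kdr, a VEGF receptor that decorin is known to bind and a marker of endothelial cells, rose from 42.2 and 38.0 CPM to 99.7 and 121 CPM (log2 fold change 1.43 ± 0.12, limma adjusted p = 0.010). Met, the hepatocyte growth factor receptor and also a decorin partner, fell by 0.82 ± 0.11, Mstn, the myostatin gene, rose by 1.08 ± 0.14 and Bmp2 by 0.57 ± 0.10. Mstn was also low, at 0.91 and 0.88 CPM in Ctrl and 2.69 and 3.38 CPM in WC1, a 3.39-fold higher level, and its log2 fold change was 1.78 in edgeR. Cd14 (-0.64, limma adjusted p = 0.041) and Tlr4 (-0.40, limma adjusted p = 0.041), named after their values had been seen, were called lower like Met. Tgfb1, a ligand that decorin and biglycan bind, had a log2 fold change of -0.40 ± 0.12 and was not called (limma adjusted p = 0.082). Its log2 fold change was -0.57 without WC1 1 and -0.24 without WC1 2, and DESeq2 called it at -0.38 (DESeq2 adjusted p = 0.028).

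Other proteoglycans were compared with the family. Of 21 tested core proteins, 4 were called higher and 3 lower (median 0.04). The large chondroitin sulfate proteoglycan versican (Vcan) fell by 0.87 ± 0.11 and syndecan 4 (Sdc4) by 0.61 ± 0.07, while Gpc4, a glypican made by adipocytes, rose by 1.14 ± 0.23 and Ncan, the neurocan gene, by 0.88 ± 0.10 (limma adjusted p between 0.015 and 0.035). Hspg2, named after its values had been seen, encodes perlecan, the basement membrane proteoglycan that PRELP binds, and rose by 0.75 ± 0.16 (limma adjusted p = 0.038).

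**Figure D5:**
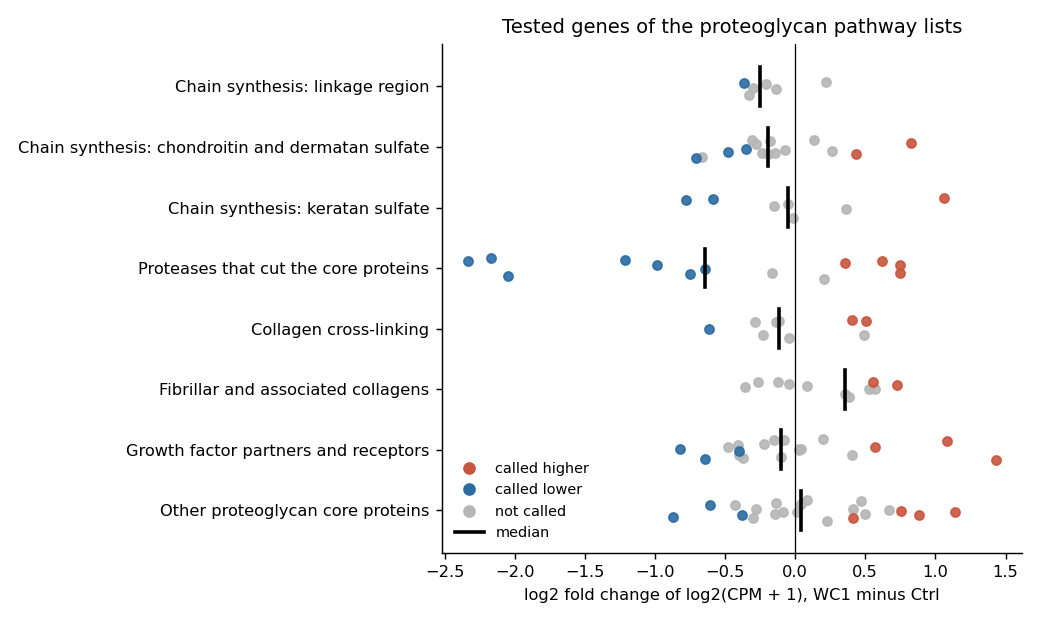
Log2 fold change (WC1 minus Ctrl, log2(CPM + 1) scale) of every tested gene of 8 lists around the proteoglycans, with a black bar at the list median. Red marks genes called higher and blue genes called lower; the protease list has the lowest median (-0.64) and the collagen list the highest (0.35).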

How the data were processed

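The authors deposited 2 gene-by-library matrices, which name genes by symbol. In the first, called CPM, reads per gene had been divided by a rescaled library size, since its columns do not share 1 sum; it is a deposited signal proportional to reads. All values were whole multiples of 1 read to within 0.01 read (100% in each library). In the second the authors deposited TPM. The submitters' processing notes name fastp, HISAT2, StringTie and mm10. No source used here names the read counter or annotation. Libraries of a group differed by more than counting error (chi-square over its degrees of freedom 37.0 in Ctrl and 93.4 in WC1).

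The groups were compared in limma 3.58.1 (R 4.3.3) on log2(CPM + 1), with an abundance trend, two-sided, and Benjamini-Hochberg adjustment over the 14106 genes that reached 0.5 CPM in 2 or more libraries; a fold change on this scale understates that of low genes. Alternatives were pseudocounts of 0.1 and 3, no filter, a mean of at least 5 CPM, TPM, TMM and median-of-ratios scaling, edgeR 4.0.16 and DESeq2 1.42.0 on recovered reads, each library left out and a replicate block. Scripts were tested on simulated data. Lists were described by counts and medians without set tests. The members, lists and named genes (all members and relatives, the 4 smallest p of each list, Col1a1, Col3a1, Col6a1 and Tgfb1, and 2 genes most like each member) were chosen with earlier results of these data known. Outside this rule, Hspg2, Htra1, Tll1, Adamts5 and Adamts1, and also Mmp2, Mmp12, Mmp14, Cd14 and Tlr4, were named after their values had been seen. The first of these sets, but not the second, is among the genes recomputed below. Ccn2 was found under its older symbol Ctgf.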

Additional observations from a re-analysis of the deposited data

How the results depend on the processing

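The counts of calls and the log2 fold changes of 54 named genes were recomputed under 14 alternatives. The levels, orders, shares, ratios and marker sums, the genes most like each member, and Mmp2, Mmp12, Mmp14, Cd14 and Tlr4 were not. The edgeR and DESeq2 alternatives change both the scaling and the model, and the others 1 choice each. Of 111 values of the 8 members, 92 kept direction and side of the threshold, 10 lost the call (6 with a library left out), 3 gained it and 6 changed sign. Of 637 values of 46 other named genes, 516 kept both, 91 lost the call (67 with a library left out), 22 gained it and 8 changed sign. With no filter (18132 genes) 0 members were called higher and 0 lower, and 788 and 532 genes in all (5629 at an unadjusted p under 0.05); limma adjusted p was 0.078 for Dcn, 0.079 for Lum and 0.072 for Prelp. In TPM 1 member was called lower, and 583 genes. DESeq2 called 1736 genes lower, and with Bgn 3 members (Bgn adjusted p = 0.0021). With a library left out, 0 to 2 members were called higher and 0 to 3 lower, and 2 to 2424 genes higher and 4 to 2748 lower. The counts of 0 came without Ctrl 1 or without Ctrl 2, where 2621 and 3115 genes had an unadjusted p under 0.05. A group left with 1 library is assumed to vary like the other.

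Signs changed as follows. In TPM the log2 fold changes were 0.010 for Fmod, 0.036 for Ogn, 0.020 for Aspn, 0.033 for Chadl and 0.080 for Podn. Chadl was at 0.0054 in edgeR and 0.0067 in DESeq2. With a library left out, Fmod ranged from -0.61 to 0.36 (above 0 without WC1 1), Omd from -0.12 to 0.14 (below 0 without Ctrl 2, at -0.057, or WC1 2), Chadl from -0.23 to 0.19 and Col1a1 from -0.13 to 0.30 (both signs changed without WC1 1), and Podn from -0.19 to 0.079 (above 0 without WC1 1 or, at 0.057, without Ctrl 1). The cause of these changes was not tested. Omd, Epyc, Optc, Chadl, B3gnt7, Gzmb, Mstn and Tll1 have no value under a mean of at least 5 CPM.

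Counts of the gene lists moved by over 1.5 times as follows. Without Ctrl 1 or without Ctrl 2 every count was 0. Without WC1 1 the called genes were 1 linkage enzyme higher (0 as reported) and 3 lower (1), 4 cross-linking genes lower (1), 5 collagens higher (2) and 2 lower (0), 8 growth factor genes lower (3), and 7 other proteoglycans higher (4) and 6 lower (3). Without WC1 2, 6 collagens were called higher. With no filter, 0 chondroitin and dermatan sulfate genes were higher (2), 1 keratan sulfate gene was lower (2), 1 protease was higher (4) and 4 lower (7), 0 cross-linking genes were higher (2) and 0 lower (1), and 1 collagen was higher (2), 1 growth factor gene lower (3) and 1 other proteoglycan higher (4). In TPM, 1 linkage enzyme was higher (0) and 0 lower (1), 1 chondroitin and dermatan sulfate gene was lower (3), 0 cross-linking genes were lower (1), 5 collagens were higher (2) and 1 growth factor gene was lower (3). DESeq2 called 2 linkage enzymes lower, 6 collagens higher and 6 growth factor genes lower, and edgeR 4 collagens higher. Under a mean of at least 5 CPM, 2 proteases were higher (4).

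With the replicate number as a block, the members' calls were the same (Dcn adjusted p = 0.036, Lum 0.026, Prelp 0.0092, Bgn 0.068), 1769 genes were called higher and 1497 lower, 4 collagens higher, 5 growth factor genes lower and 2 linkage enzymes lower. The labels give no meaning to the shared numbers, and the differences between libraries 1 and 2 correlated between groups at 0.19 over 14106 genes, so the pairing was not used. Groups of 2 limit every call.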

Other observations

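For each member above 10 CPM, the genes with the most similar course over the 4 libraries were looked up among 9717 genes with a mean of at least 10 CPM, by the root mean square difference of log2(CPM + 1) values centred on their mean. The likeness describes 4 points that share libraries and depth. For Prelp these were Arhgef15 (0.017) and Tshr (0.036), the thyrotropin receptor gene, which stood at 54.3 and 73.3 CPM in Ctrl, against 120 and 162 CPM in WC1. For Dcn they were Jade2 (0.020) and Pfn2 (0.021), for Lum Renbp (0.010) and Lrp12 (0.011), and for Bgn Bin2 (0.011) and Rnf149 (0.014). For Fmod, whose WC1 libraries differed most, they were Rspo1 (0.057), which stood at 14.2 and 10.7 CPM in Ctrl, against 7.87 and 16.5 CPM in WC1, and Slc39a8 (0.099). For Ogn they were Atp8b1 (0.0053) and Il27ra (0.0066), and for Aspn Gdap2 (0.0033) and Myl12b (0.0091).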
